A study of Mus musculus with 56 samples.

Results

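The lung of mice given the highest dose of chrysene was compared with the lung of vehicle controls, and the genes that differed on every exposed array were separated from those that differed on only some of them. The comparison holds 10 of the 56 arrays of the series, chosen by tissue and dose from the sample titles: 5 lung arrays of D3 (mice 16 to 20) and 5 of D0 (mice 1 to 5). All mice were adult males of about 14 weeks of the MutaMouse strain, which carries a transgene for scoring mutations, and all were gavaged with olive oil on 28 consecutive days. For D0 the oil held nothing else, and for D3 it held chrysene at 150 mg/kg-bw/day. Tissue was taken 72 hours after the last dose. The lungs of D1 (17.5 mg/kg-bw/day, 5 mice) and D2 (50 mg/kg-bw/day, 3 mice) entered the fit and are given only beside a D3 result. RNA came from random sections of the lung, so that a library holds whichever structures a section held. Each array carried the sample in Cy5 against a universal mouse reference RNA from 11 cell lines in Cy3, and a level below is the log2 ratio of sample over reference, of which differences between arrays of the same probe can be read. Each array is a different mouse by its number, so the spread within a group is a spread between mice. In bulk tissue, more cells of a type and more RNA per cell cannot be told apart.

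Chrysene is a polycyclic aromatic hydrocarbon. Compounds of this class bind the aryl hydrocarbon receptor (AhR), which pairs with ARNT in the nucleus and binds short DNA elements whose core reads GCGTG. Its textbook targets include Cyp1a1, Cyp1a2 and Cyp1b1, which oxidize such compounds to reactive metabolites, and Ahrr, a repressor that competes with the receptor. DNA adducts of the metabolites are known to activate p53, whose targets include Cdkn1a and Ccng1.

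The 250 bases upstream of the annotated starts of Ahrr and Cyp1a1 are shown because these receptor targets lay on opposite sides of D0 on every exposed lung array, and that of Cyp1b1 because it encodes the related enzyme. Capitals mark GCGTG or its reverse complement CACGC, searched on both strands, and a motif is a match of letters and not a measured site. Sequences are RefSeq's on build GRCm38.p6, on the strand of the gene. The Ahrr window (chr13:74292332-74292581, minus strand) held 3 matches, the Cyp1a1 window (chr9:57697363-57697612, plus strand) held 1 and the Cyp1b1 window (chr17:79715062-79715311, minus strand) held 1. Of 32851 windows of this length in the same table, 28.2% held at least 1 match. Bases further upstream were not searched, so these counts do not compare the number of receptor elements between the genes.
Ahrr: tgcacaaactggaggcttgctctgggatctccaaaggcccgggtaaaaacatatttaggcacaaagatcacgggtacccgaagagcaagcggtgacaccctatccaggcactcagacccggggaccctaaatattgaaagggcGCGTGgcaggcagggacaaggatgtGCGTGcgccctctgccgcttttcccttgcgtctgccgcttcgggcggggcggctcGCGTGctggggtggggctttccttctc
Cyp1a1: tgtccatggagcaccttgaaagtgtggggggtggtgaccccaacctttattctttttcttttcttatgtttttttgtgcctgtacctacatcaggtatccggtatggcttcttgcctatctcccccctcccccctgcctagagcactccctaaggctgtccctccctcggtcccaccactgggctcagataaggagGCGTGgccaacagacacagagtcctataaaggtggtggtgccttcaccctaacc
Cyp1b1: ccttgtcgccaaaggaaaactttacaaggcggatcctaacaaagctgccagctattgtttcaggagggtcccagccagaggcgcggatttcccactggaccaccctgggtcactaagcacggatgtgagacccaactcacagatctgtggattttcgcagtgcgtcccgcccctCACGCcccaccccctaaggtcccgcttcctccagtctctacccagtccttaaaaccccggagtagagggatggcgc

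The sample signal was well above background at 47.6% to 55.2% of spots on the 18 lung arrays, and lung markers were present throughout: the alveolar type 2 list, with the surfactant genes, was well above background on D0 and D3 arrays and lay within -0.20 to 0.15 of its D0 mean on every D3 array. All 5 D0 arrays lay in the leftmost column of their slides and no exposed array did, so that array column and exposure cannot be told apart. All D1 arrays lay in column 2, and the D2 and D3 arrays in columns 3 and 4. A fit with column as a covariate thus took its slope from D2 and D3 alone and carried it over to D0. Its values and signs, given below, cannot tell column from exposure. Each of the 3 slides held arrays of both D0 and D3. On slide 1 D3 was mouse 17 alone, and on slide 2 D0 was mouse 4 alone, so differences within a slide rest on few arrays.

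D3 mice 17 and 19 stood apart from the other 16 lung arrays before any comparison of dose. All 20 skeletal muscle genes of the marker list were higher on both of these arrays than on every other lung array, each by at least 1 on the log2 scale. The mean of the list lay 5.99 above its D0 mean on mouse 17 and 5.94 above it on mouse 19, against 0.18, -0.09 and -0.09 on mice 16, 18 and 20. Acta1, the actin of skeletal muscle fibres, had log2 ratios of -2.37, -2.42, -1.90, -2.21 and -2.10 on the D0 arrays, 7.07 on mouse 17 and 7.39 on mouse 19, and -1.85, -2.42 and -2.18 on mice 16, 18 and 20. The fast troponin genes Tnni2 and Tnnt3, which switch contraction on in response to calcium, stood 7.91 and 7.36 above their D0 means on the same pair of arrays, and Neb (nebulin) and Eno3, the muscle enolase, stood 5.96 and 5.66 above theirs. The fast myosin Myh4 was well above background on mice 17 and 19 and on none of the other D0 and D3 arrays. Since 6 of the 20 members were not well above background on any D0 array, the list means above are lower bounds.

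Genes of stratified squamous epithelium were high on the same arrays. Of 17 keratinocyte list members on the array, 14 were higher on both mice 17 and 19 than on all other lung arrays, and the list mean lay 2.67 and 3.16 above that of D0, against at most 0.06 on mice 16, 18 and 20. Of these 17 members, 7 were not well above background on any D0 array. Lor, which encodes the loricrin of the cornified envelope, had log2 ratios of 0.62 to 1.01 in D0, 7.37 and 7.71 on mice 17 and 19, and 0.89 to 1.17 on the other D3 mice. Krt14, a keratin of basal cells, was -1.51 to -1.23 in D0, 2.96 and 3.47 on mice 17 and 19, and -1.46 to -1.37 on the rest of D3. Calml3, Sprr1a and Dmkn, genes of differentiating squamous cells, stood 5.03, 3.47 and 3.16 above their D0 means on mice 17 and 19. The members that did not stand apart were Flg2, Ivl and Trp63, of which Flg2 and Ivl were not well above background on any D0 or D3 array. Krt13, a keratin known from the lining of the oesophagus and tongue that was chosen after its values were seen, had a mean 6.06 above D0 on mice 17 and 19 by the probe A_51_P307964, which cleared the background limit in 3 of 5 D0 mice. The hair follicle list did not follow: 0 of its 12 members were above all other arrays on mice 17 and 19, and their differences from D0 there had a median of -0.01.

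Other marker lists moved with these arrays in part. The adipocyte mean was 2.52 and 3.18 above D0 on mice 17 and 19, but it was also 1.09 on D3 mouse 16 and 2.76 on D2 mouse 13. Ucp1, the uncoupling protein of brown fat, had a log2 ratio of 6.74 on mouse 19 and 1.86 on mouse 17, against -0.04 to 0.41 in D0, all 5 of them not well above background. The smooth muscle mean was 1.03 and 0.77 above D0 on mice 17 and 19, against -0.32 to -0.21 on mice 16, 18 and 20. Of its 9 members 6 were higher on both mice 17 and 19 than on all other lung arrays, led by Des (desmin, which skeletal muscle also makes) at 3.26 and Actg2, the enteric actin, at 1.41 above D0. The T cell and B cell means were 1.43 and 1.04 above D0 on mouse 19, and -0.07 and 0.09 on mouse 17. For skeletal muscle RNA, the fit was repeated without both arrays and with the list mean as a covariate, and each left 0 genes past the limits described below by limma, although 2899 and 2974 genes reached 0.05 before adjustment. These counts of 0 do not measure the part of muscle RNA, since they give no sizes, and the sizes varied by gene. Without both arrays Sspn, Dvl3 and Krtap19-4 differed from D0 by 0.57, -0.65 and -0.65, beside 0.63, -0.69 and -0.72 with them. Shisa2, Frg1, Sesn2 and Dmtf1 shrank more, from 0.84, -0.71, -0.65 and -0.60 to 0.56, -0.50, -0.46 and -0.42. All 38 decreases past both limits were larger on mice 17 and 19, and 12 of them were still at least 1.5-fold on mice 16, 18 and 20. The part of muscle RNA and of the other RNAs in the differences was not tested further.

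**Figure D1:**
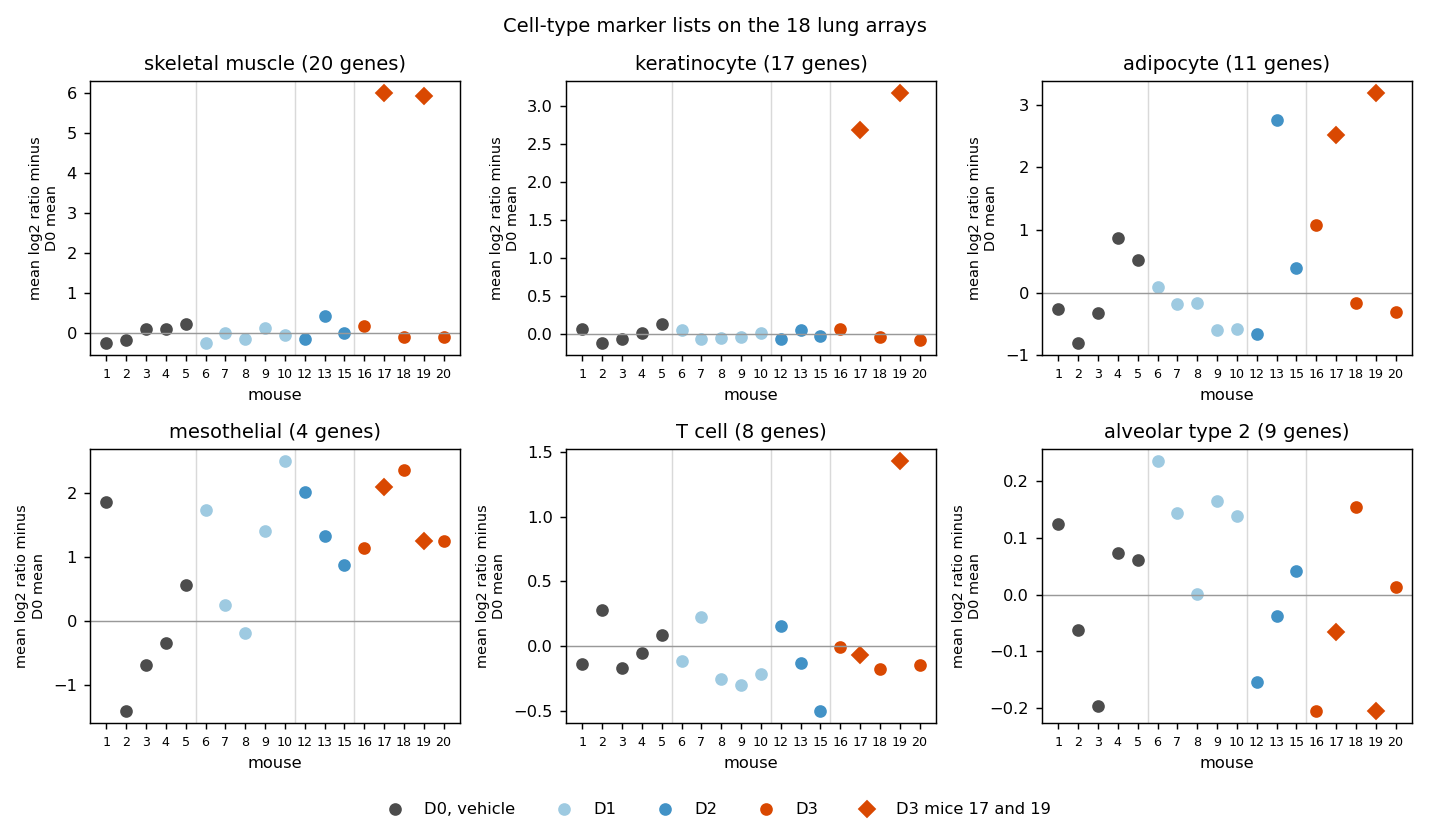
Mean log2 ratio of 6 marker lists on each of the 18 lung arrays, minus the D0 mean of the list; points are single arrays, numbered by mouse and coloured by dose, and diamonds are D3 mice 17 and 19. Skeletal muscle and keratinocyte genes separate mice 17 and 19 from the other 16 arrays, whereas the mesothelial list lies at 1.14 to 2.35 on the D3 arrays, 0.88 to 2.01 on the D2 arrays, -0.18 to 2.49 on the D1 arrays and 1.86 on D0 mouse 1.

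Across the 31448 probes tested, 350 (1.11%) were at least 1 above the highest D0 array on both mice 17 and 19 and not above it on mice 16, 18 and 20. They carried 212 named genes and 114 probes without a symbol, and their mean difference from D0 on mice 17 and 19 ranged from 1.15 to 8.10, with a median of 2.14. For 26 of the 350 no D0 array was well above background and the difference is a lower bound. On 279 of the 350 probes mouse 19 was the higher of the pair. The largest outside every list was Crct1, a cornified envelope gene, with log2 ratios of -0.12 to 0.13 in D0, 7.81 and 8.41 on mice 17 and 19, and 0.01 to 0.11 on mice 16, 18 and 20. Its D0 values are bounds, since all 5 were not well above background. Ada (adenosine deaminase) was -2.18 to -1.52 in D0, 5.79 and 6.67 on mice 17 and 19, and -2.17 to -2.04 on the other 3. Serpinb3c, a serpin of squamous epithelium, was 0.11 to 0.32 in D0, 6.89 and 7.26 on mice 17 and 19, and 0.16 to 0.30 on the others. Mt4, a metallothionein of squamous epithelium, Pkp1, a desmosomal plaque protein, and Myh8, the perinatal myosin heavy chain, reached 6.25 and 6.82, 3.37 and 4.10, and 7.53 and 7.94 on mice 17 and 19. None of the 350 probes had an adjusted p of at most 0.05 by limma, and 211 reached it before adjustment.

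Mice 17 and 19 weighed on the group mean. Of the 734 probes whose D3 mean was at least 1.5-fold higher than that of D0, without regard to a test, 305 belonged to the 350, and 35 had all 5 D3 arrays above all 5 D0 arrays. With mice 17 and 19 left out, 95 probes had a mean at least 1.5-fold higher and 102 a mean at least 1.5-fold lower than D0.

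The comparison of all 5 D3 arrays with D0 gave 40 probes past both limits (limma, Benjamini-Hochberg adjusted p of at most 0.05 and a fold change of at least 1.5), which is 0.127% of the probes tested: 2 were higher (0.00636%) and 38 lower (0.121%), for 40 genes or transcripts in all. With loess of the scanner medians 14 genes passed both limits at D3, 1 higher and 13 lower. With median centring 0 passed by limma, although 4287 had p up to 0.05 before adjustment. At D1 and at D2 there were 0 by limma, although 1849 and 1924 probes had p up to 0.05 before adjustment. When the fold limit was dropped, 107 probes passed at D3, 12 higher (0.0382%) and 95 lower (0.302%). The unadjusted calls numbered 1903 higher (6.05%) and 3180 lower (10.1%). This split followed the scaling of the arrays: increases made up 37.4% of the unadjusted calls with the deposited ratios, 54.4% with loess of the scanner medians and 92.9% with median centring, which moved the median log2 difference of all probes from -0.03 to 0.11.

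Shisa2 and Sspn rose. Shisa2 encodes a protein of the endoplasmic reticulum that restrains Wnt and FGF receptor maturation. Its log2 ratios were 1.502, 1.68, 1.16, 1.38 and 1.10 in D0, and 1.95, 2.77, 1.96, 2.50 and 1.86 on D3 mice 16 to 20. All D3 arrays lay above all D0 arrays, with mice 17 and 19 highest (log2 fold change 0.84, SE 0.17, limma adjusted p 0.0404, and 0.0361 with slide as a block). It was 0.56 without mice 17 and 19, under the fold limit, and with array column as a covariate its sign turned (-0.27, SE 0.58). Sspn encodes sarcospan, a membrane protein that stabilizes the dystrophin complex of muscle and is also made outside muscle. Its log2 ratios were 0.97, 0.78, 0.89, 1.26 and 0.73 in D0, and 1.52, 1.58, 1.38, 1.71 and 1.59 in D3. The D3 arrays again did not overlap with D0 (log2 fold change 0.63, SE 0.12, adjusted p 0.0321, and 0.0624 with slide as a block, which ends the call), and mice 16, 18 and 20 alone differed from D0 by 0.57. Sspn was the member of the dystrophin complex list past both limits. Sgca, which encodes a sarcoglycan of striated muscle, cleared the background limit in 1 of 5 D0 mice. It was 2.72 above D0 on mice 17 and 19 and differed from D0 by -0.05 on the others, and of the 12 members tested 7 had positive differences, with a median of 0.07. Dag1 (dystroglycan) had -0.32 (adjusted p 0.222).

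The 38 decreases were modest and alike in size, with log2 fold changes from -0.93 to -0.59. Of these, 12 carried a gene symbol. Abcc5, an exporter of cyclic nucleotides and conjugates, fell from 0.48, 0.40, 0.02, 0.50 and 0.52 in D0 to 0.07, -0.58, -0.50, -1.27 and -0.18 in D3 (log2 fold change -0.88, SE 0.18, adjusted p 0.0474). Mouse 16 of D3 lay above mouse 3 of D0, so the groups overlapped. C2cd3 and Cep41, both proteins of centrioles and cilia, fell by 0.80 and 0.65. Dvl3, a relay of Wnt signals, had 0.47, 0.33, 0.05, 0.58 and 0.35 in D0 and -0.14, -0.30, -0.27, -0.48 and -0.49 in D3, and fell by 0.69 with no overlap. Sesn2, a p53 target that restrains mTORC1, was -0.59 to -1.06 in D0 and -1.11 to -1.99 in D3 and fell by 0.65, again with no overlap. The separation depended on scaling. With the deposited ratios 34 of the 38 decreases had no overlap, and 1 of the 38 had none under the 3 other scalings as well. Dvl3 and Sesn2 had no overlap under 3 scalings, the deposited ratios among them. Krtap19-4, a keratin-associated protein gene of the hair follicle, fell by 0.72 (adjusted p 0.0159). The nuclear genes Frg1, Dmtf1, Phf20l1, Mideas and Zfp628 fell by 0.71, 0.60, 0.60, 0.61 and 0.68, and Nbeal1, a protein of cholesterol handling, fell by 0.63. With slide as a block, Krtap19-4 and Nbeal1 kept the call (adjusted p 0.0282 and 0.0498), and the other 10 named decreases lost it, with adjusted p from 0.0508 for Dvl3 to 0.0887 for Frg1.

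The other 26 decreases were of transcripts without a symbol, 13 of them known by genomic regions (coordinates on mm9, per the array design). The largest fall among the regions was at chrX:50400250-50410825, with log2 ratios of -0.0747 to 0.60 in D0 and -1.25 to -0.0695 in D3 (log2 fold change -0.93, limma adjusted p 0.0474). There the groups overlapped, and with slide as a block the call was lost (adjusted p 0.0784). The next largest fall, at chr5:22801058-22939737, had 0.29 to 1.02 in D0 and -0.32 to -0.01 in D3 (log2 fold change -0.79, limma adjusted p 0.0159). This region had no overlap under 3 scalings, the deposited ratios among them, but not under all. It kept the call with slide as a block (adjusted p 0.0282).

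All 38 decreases were larger on mice 17 and 19 than on mice 16, 18 and 20, with a median log2 difference from D0 of -0.82 on the former and -0.56 on the latter. On mice 16, 18 and 20 alone, 12 of the 38 were at least 1.5-fold lower than D0. The probes lay well above background on all 18 lung arrays. With mice 17 and 19 left out of the fit, 0 probes passed both limits by limma (smallest adjusted p 0.0846, with 1555 higher and 1551 lower when p was left unadjusted). The count also depended on single mice of either group. It was 0 without D0 mouse 1, 25 without mouse 2, 67 without mouse 3, 8 without mouse 4 and 16 without mouse 5, and 142 without D3 mouse 16, 10 without mouse 17, 1 without mouse 19 and 22 without mouse 20. With slide as a block 20 remained in number, of which 18 were among the 40, and with array column as a covariate 0. That covariate turned the sign of 17 of the 40 differences, 10 of them among the 14 with a symbol (Shisa2, Abcc5, C2cd3, Cep41, Dmtf1, Frg1, Nbeal1, Phf20l1, Sesn2 and Zfp628), with SE of 0.31 to 0.71. Since its slope came from D2 and D3 arrays alone, the turned signs cannot tell column from exposure.

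**Figure D2:**
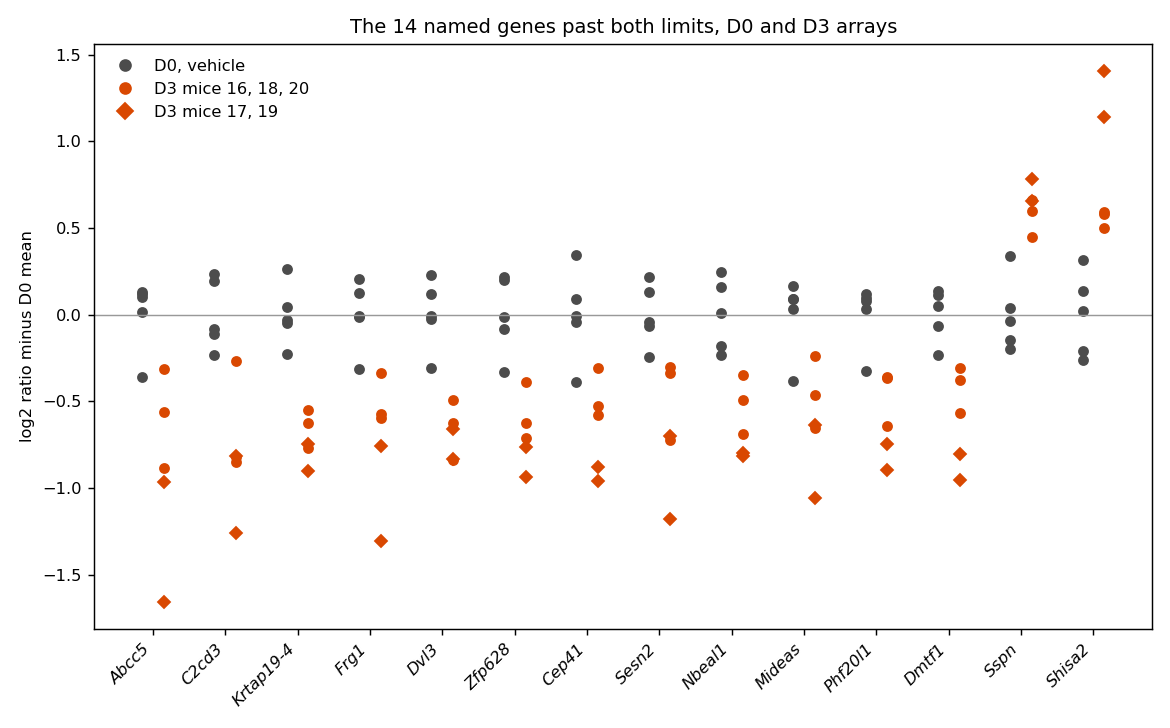
Log2 ratio minus the D0 mean for the 14 genes with a symbol past both limits; each point is an array of D0 (grey) or D3 (orange), and diamonds are mice 17 and 19. For the decreases, the lowest D3 point is mouse 17 or 19 in most genes, and mice 16, 18 and 20 lie closer to D0.

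Separation of the groups was next used to find changes shared by all D3 mice. All 5 D3 arrays lay above all 5 D0 arrays for 213 probes (0.677%) and below them for 609 (1.94%), and 35 and 57 of these had a mean difference of at least 1.5-fold. The split again depended on scaling: the higher probes were 25.9% of the non-overlapping ones with the deposited ratios, 44.2% with loess of the scanner medians and 87.6% with median centring. Non-overlap alone did not remove the genes of the squamous and muscle pattern. Ryr1, the calcium release channel of skeletal muscle, had -0.06 to 0.12 in D0, 5.09 and 5.32 on mice 17 and 19, and 0.17, 0.24 and 0.52 on mice 16, 18 and 20, which is just above D0. Grhl3, a transcription factor of epidermal barrier formation, and Srpk3, a muscle kinase, behaved likewise, with 3.30 and 4.44, and 2.28 and 2.57, on mice 17 and 19 against 0.55 to 0.64, and 0.65 to 0.79, on the others. Phyhip stood 2.07 above D0 on mice 17 and 19 and 0.37 on the others, with no D0 array well above background. Of the 35 higher probes, 11 were still at least 1.5-fold higher on mice 16, 18 and 20 alone, and of the 57 lower probes 18 were still at least 1.5-fold lower.

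Under the deposited ratios and the 3 other scalings together, 70 probes were higher and 23 lower with no overlap. Requiring in addition a difference of at least 1.5-fold on mice 17 and 19 and, separately, on mice 16, 18 and 20 left 9 probes, 8 higher and 1 lower. The 8 were 6 probes of the Serpina1 family, 1 probe of Spib and 1 probe without a symbol, and the lower probe was Cyp1a1. This set was chosen on the same values, and its separation from D0 is a description and no test.

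**Figure D3:**
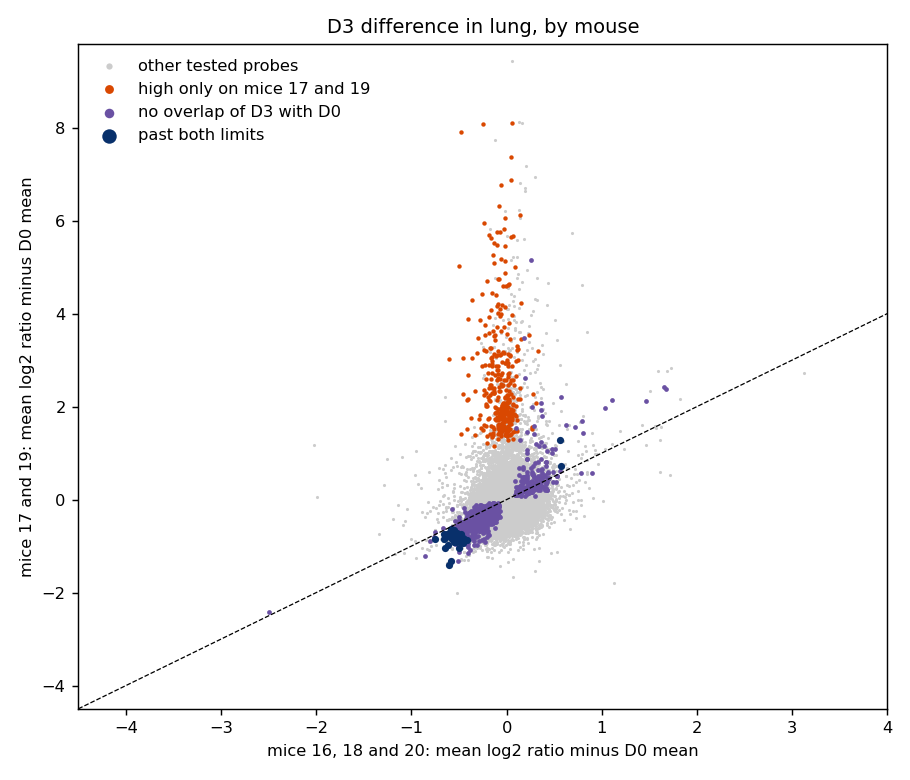
Mean log2 difference from D0 on mice 17 and 19 (vertical) against that on mice 16, 18 and 20 (horizontal), 1 point per tested probe; the dashed line marks equality. Probes high only on mice 17 and 19 rise near a horizontal difference of 0, and the 38 decreases past both limits lie below the line. The non-overlapping probes lie on both sides of the line, some of them, such as Ryr1 and Phyhip, far above it.

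Cyp1a1 is the receptor target that metabolizes polycyclic aromatic hydrocarbons. Its log2 ratios were 1.21, 1.12, 2.99, 1.24 and 1.75 in D0 and 0.78, 0.75, 0.75, 0.15 and 0.88 on D3 mice 16 to 20. Every D3 array lay below every D0 array, as did every D1 array (0.01 to 0.81) and every D2 array (0.40 to 0.96), so that 13 of 13 exposed arrays were lower. By limma the D3 mean differed from D0 by -0.998 (SE 0.28, adjusted p 0.127, and 0.0846 with slide as a block) and did not pass the test, and without mice 17 and 19 it was -0.86. D0 mouse 3, at 2.99, stood above the 1.12 to 1.75 of the other D0 mice. The size of the difference, and with it the 1.5-fold limit in the set above, rests in part on that mouse. The lack of overlap does not, since D0 mouse 2 was the lowest. The difference was -0.41, -0.79 and -1.54 within slides 1, 2 and 3, each from few arrays, and slide 3 held D0 mouse 3. Its probe stood well above background in 5 of 5 D0 mice and 4 of 5 D3 mice. Of the 31448 probes tested, 33 had all 13 exposed arrays below every D0 array, Cyp1a1 among them.

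Ahrr, the receptor's repressor, went the other way. Its log2 ratios were -0.77, -0.61, -0.85, -0.85 and -0.73 in D0 and -0.39, -0.40, -0.36, -0.19 and -0.27 in D3, with 13 of 13 exposed arrays above all D0 arrays (D1 -0.54 to -0.29, D2 -0.42 to -0.32). The signal was not well above background on any D0 array and was so on all 13 exposed arrays, so the ratio in D0 is a bound, and Ahrr was at least 1.35-fold higher in D3. Its log2 fold change of 0.44 (SE 0.07) had a limma adjusted p of 0.0159, 0.0282 with slide as a block, and stood below the fold limit. Since the probe passed the filter on dim spots only through exposed arrays, on which it is high, these p-values are a description. The adjusted p was 0.0189 with no such filter and 0.276 with median centring. The differences within slides 1, 2 and 3, each from few arrays, were 0.29, 0.57 and 0.46. Neither the size at D1 nor that at D2 (0.38 and 0.39) was far from that at D3, and since D0 alone occupied the leftmost array column, exposure and column cannot be told apart for these genes. Of all probes tested, 6 had all 13 exposed arrays above every D0 array, Ahrr among them.

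Of the 11 AhR targets, 10 were tested and 0 passed both limits, beside 0.127% of all probes tested. At that share a count of 0 in a short list, here and below, is no evidence that its members did not respond. Cyp1b1 differed by 0.34 (adjusted p 0.313), with -2.08 to -1.31 in D0 and -1.75 to -0.94 in D3. The Cyp1a2 probe stayed dim, with no D0 or D3 array well above background. Nqo1, a quinone reductase that AhR and NRF2 both induce, had -1.80 to -1.22 in D0, -0.48 and -0.19 on mice 17 and 19, and -1.51 to -0.95 on mice 16, 18 and 20. The mean difference of 0.55 (adjusted p 0.22) was 0.16 without mice 17 and 19. Aldh3a1, an aldehyde dehydrogenase, was 3.09 and 3.79 on mice 17 and 19 against 0.09 to 0.86 on the others and 0.32 to 1.11 in D0. Gsta2, a glutathione transferase, was 1.83, 2.29 and 1.13 on mice 16, 17 and 19 but 0.12 and 0.02 on mice 18 and 20, against -0.40 to 0.38 in D0. The list's median difference was 0.26, and 0.04 without mice 17 and 19, beside -0.03 for all probes tested.

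**Figure D4:**
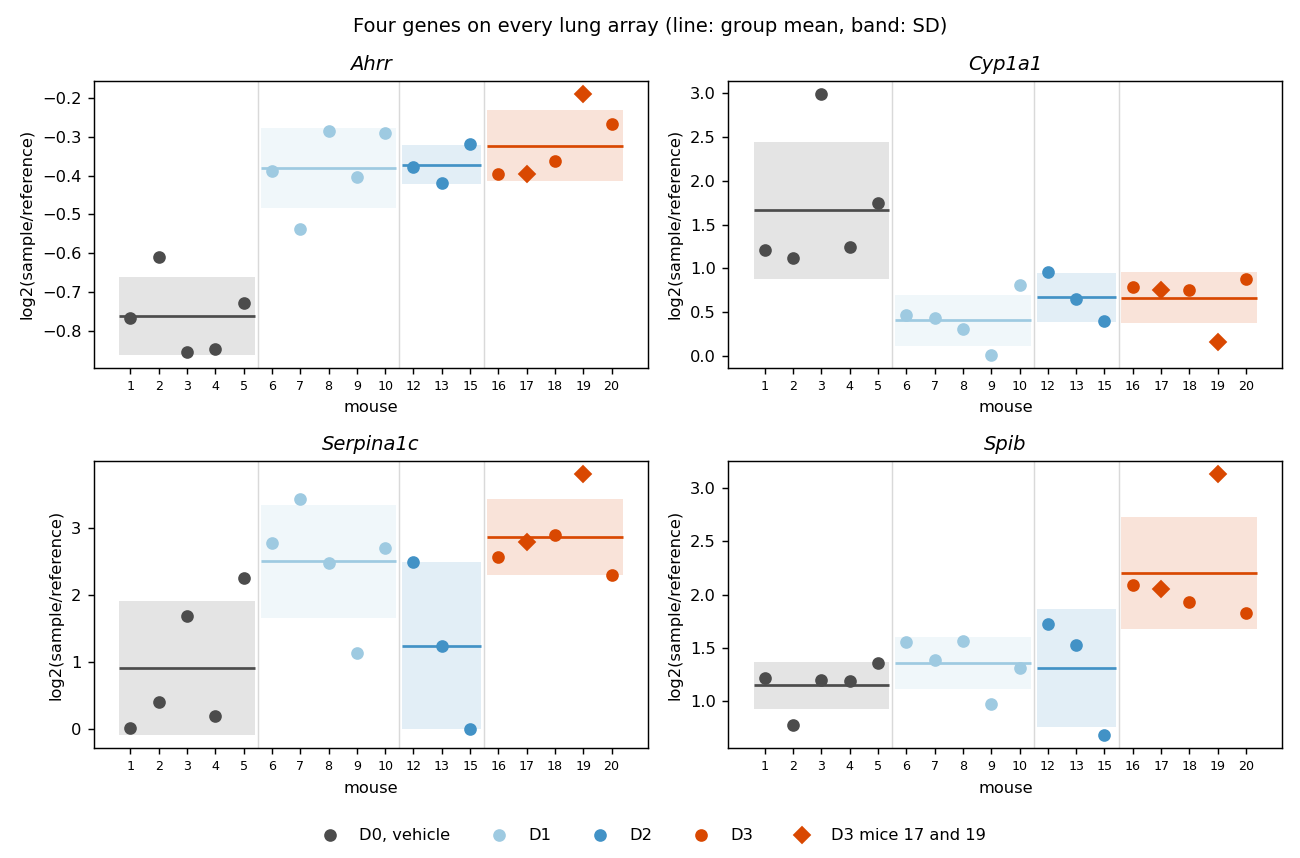
Log2 ratio of sample over reference for Ahrr, Cyp1a1, Serpina1c and Spib on each of the 18 lung arrays; lines are group means, bands are 1 SD, and diamonds are D3 mice 17 and 19. Ahrr is higher and Cyp1a1 lower on all 13 exposed arrays than on any D0 array, and for Serpina1c and Spib 10 of the 13 exposed arrays, with all 5 of D3, lie above every D0 array.

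Serpina1a to Serpina1e encode copies of alpha-1 antitrypsin, the inhibitor of neutrophil elastase, and are similar enough that a probe may bind several copies, so they are counted here as 1 signal. Serpina1c had log2 ratios of 0.02, 0.41, 1.70, 0.20 and 2.25 in D0 and 2.57, 2.79, 2.89, 3.80 and 2.31 in D3. All D3 arrays were above D0, but D0 mouse 5 was just below the lowest. The means differed by 1.96 (SE 0.51, adjusted p 0.107 by limma), and by 1.68 on mice 16, 18 and 20. Serpina1e, Serpina1d and Serpina1a had log2 fold changes of 1.72, 1.52 and 1.15 with adjusted p of 0.105, 0.103 and 0.146. With array column as a covariate all 4 turned sign (-1.01, -1.73, -1.37 and -0.95, SE 1.22 to 1.84). In D0 the Serpina1d and Serpina1a probes cleared the background limit in 2 of 5 mice, against 5 of 5 in D3. Their D0 means thus rest partly on dim values, and their folds are not exact sizes. All 4 of these probes had 10 of 13 exposed arrays above every D0 array. Of the 8 members of the hepatocyte list, 3 were tested and 0 passed the limits. Serpina1a, here by a brighter probe, had 2.12 (adjusted p 0.134), Cyp2e1, a cytochrome P450 also made in lung, had 0.58 (adjusted p 0.193) and 0.19 without mice 17 and 19, and Alb had -0.11. Apoa1, Ttr, Fga and Cps1 were not well above background on any D0 or D3 array, and Alb and Fgb on 1 D3 array each and no D0 array. The list mean was 0.15 to 0.51 above D0 on the D3 arrays, against -0.12 to 0.13 on the D0 arrays, but it includes Serpina1a itself. Over the 6 members other than Serpina1a and Cyp2e1 it was -0.09 to 0.10 in D3 and -0.10 to 0.09 in D0. Serpina1c was also high at D1, by 1.59, and by 0.33 at D2.

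Spib, a transcription factor of B cells and of some epithelia, had 1.22, 0.78, 1.20, 1.19 and 1.36 in D0 and 2.09, 2.05, 1.93, 3.13 and 1.83 in D3 (log2 fold change 1.05, SE 0.23, limma adjusted p 0.054), and the difference at D1 and D2 was 0.21 and 0.16, with 10 of 13 exposed arrays above every D0 array. Mouse 19, with the high lymphocyte lists, was highest. With array column as a covariate the D3 difference of Spib was 0.04 (SE 0.84). The 8 B cell genes tested all had positive differences, with a median of 0.40 and of 0.21 without mice 17 and 19. Their list mean was 0.33, 0.09, 0.21, 1.04 and 0.10 above D0 on mice 16 to 20, against -0.34 to 0.17 on the D0 arrays.

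On the lower side, Cxcl5, a neutrophil chemokine, had the largest non-overlapping difference. It was -2.99, -2.06, -0.60, -2.56 and 2.12 in D0 and -3.69, -3.15, -3.71, -4.13 and -3.75 in D3. The mean difference of -2.47 (SE 0.75, adjusted p 0.151) was -1.63 without D0 mouse 5. Cav1, the coat protein of caveolae in endothelium and alveolar type 1 cells, was 2.64, 2.37, 1.93, 2.40 and 1.89 in D0 and 1.82, 1.16, 1.57, 1.08 and 1.83 in D3 (log2 fold change -0.75, SE 0.16, adjusted p 0.0551). On mice 16, 18 and 20 the difference was -0.50, and the alveolar type 1 and endothelial lists had medians of -0.16 and -0.12, which were 0.03 and 0.06 without mice 17 and 19. Dnaja1, a chaperone, and Cdk14, a cell cycle kinase, had log2 fold changes of -0.84 and -0.83 (adjusted p 0.186 and 0.0582). Snrnp48 and 1500011B03Rik had -0.78 and -0.76 with adjusted p of 0.25 and 0.227, the former with 1.29 on D0 mouse 5 against -1.04 to -0.80 on the other D0 mice.

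Genes of the DNA damage response lay on both sides of D0. Of 22 p53 targets, 20 were tested, 7 had positive and 13 negative differences, and the median was -0.07. Without mice 17 and 19 the median was 0.02, with 10 positive and 10 negative. Sesn2 passed both limits downward. Cdkn1a, the cell cycle inhibitor p21, differed by -0.25 (adjusted p 0.702), with 0.39 on D0 mouse 3 and -1.31 to -0.94 on the other D0 mice, and -0.57 and -0.45 on mice 17 and 19 against -1.50 to -1.38 on the other D3 mice. Ccng1 (cyclin G1) had 0.49 (adjusted p 0.247) and 0.13 without mice 17 and 19. Perp, which is both a p53 target and a desmosome gene of squamous epithelium, was 2.78 and 3.62 on mice 17 and 19 against -0.68 to 0.25 on the others. Gdf15, Fas, Aen and Btg2 had -0.67, -0.47, -0.19 and -0.21, each with an adjusted p above the limit. The 20 proliferation genes, of which 19 were tested, had a median of -0.0048, and -0.21 without mice 17 and 19. The NRF2 targets had a median of 0.06 over 19 tested, 13 of them positive, and of -0.0095 without mice 17 and 19, with 9 positive and 10 negative.

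Output genes of the circadian clock had a median difference from D0 of 0.40 on mice 16, 18 and 20 and -0.02 on mice 17 and 19. Relative to D0, their list mean was -0.07 to 0.71 on the D3 arrays and -0.49 to 0.35 on the D0 arrays, so the groups overlapped. It was -0.39 to 0.67 on the D1 arrays and 0.29 to 1.37 on the D2 arrays. Hlf, a clock-driven transcription factor, had 0.51, 0.00, 0.23, 0.62 and -0.01 in D0 and 1.31, 0.66, 1.54, 1.01 and 0.65 in D3, with no overlap (log2 fold change 0.76, adjusted p 0.138). Dbp, its relative, had -1.95 to 0.42 in D0, and 1.52, 1.54 and 0.11 on mice 16, 18 and 20 and -0.42 and 0.17 on mice 17 and 19. Nr1d1, the clock repressor REV-ERB alpha, had 0.64 (adjusted p 0.255). The median of the 10 genes was 0.17 over all D3 mice, and 0 passed the limits.

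Mesothelial markers were high on the D3 arrays and on many of the other lung arrays. The mean of the 4 genes was 1.14, 2.09, 2.35, 1.25 and 1.24 above the D0 mean on mice 16 to 20, and 1.86, -1.40, -0.69, -0.34 and 0.56 on D0 mice 1 to 5, so the groups overlapped through D0 mouse 1. On the D1 arrays it was -0.18 to 2.49 and on the D2 arrays 0.88 to 2.01, and D1 mouse 10 stood above every D3 array. Wt1, the transcription factor that marks mesothelium, had the largest difference (1.84, adjusted p 0.151), and Msln, Upk3b and Lrrn4 had 1.48, 1.55 and 1.59. The list median was 1.57, and 1.59 without mice 17 and 19. Complement genes C2 and C4b were high on the same D0 mouse: C2 had 3.55, 1.02, 1.98, 1.90 and 2.83 in D0 and 3.06, 3.93, 4.20, 3.51 and 3.09 in D3 (log2 fold change 1.30, adjusted p 0.176), and C4b had 0.96 (adjusted p 0.279). The complement list as a whole did not follow that mouse: its mean in D0 was highest on mouse 5, at 0.51, and was 0.14 on mouse 1. Of 18 complement genes tested 16 had positive differences, with a median of 0.24 that was 0.06 without mice 17 and 19. With the mesothelial mean as a covariate, an alternative added after the data had been seen, 0 genes passed both limits by limma, with 3253 reaching 0.05 before adjustment. The part of mesothelial RNA in these values was not otherwise tested.

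Interferon response genes had lower means in D3, by little and not on every array. All 18 tested had negative differences, from -0.64 to -0.02 with a median of -0.19, and 0 passed the test. Without mice 17 and 19 the median was -0.13, with 4 positive and 14 negative. The list mean was -0.32, -0.69, 0.14, 0.05 and -0.39 on D3 mice 16 to 20, against -0.49 to 0.46 on the D0 arrays, and of these mouse 17 lay outside the D0 range. The largest were Xaf1 and Ifit1 at -0.64 and -0.61 (adjusted p 0.184 and 0.27). Among extracellular matrix genes, Dcn and Lum, the proteoglycans decorin and lumican, were 2.32 and 1.51, and 3.99 and 4.36, on mice 17 and 19 against -0.03 to 0.28, and 1.25 to 1.47, on the others, Col6a2 and Fbn1 had 0.35 and 0.36, and Lox, which cross-links collagen, had -0.35 (adjusted p 0.156). The list median was 0.02. In the nitric oxide list, Nos3 and Vegfa had -0.32 and -0.47, and Cav3, the caveolin of muscle, was 4.71 and 5.00 on mice 17 and 19 against 1.80 to 2.35 on the others. Of the 16 focal adhesion genes 9 had positive and 7 negative differences, with a median of 0.02, and 0 passed the test. Those at an unadjusted p of at most 0.05 by limma were Itgb1, Parva and Actn1, with -0.22, -0.22 and -0.23. These were 3 of 16 members, beside 10.1% of all probes tested that were lower at that limit. Ptges3, a co-chaperone of the AhR complex, had -0.30 and did not pass the test.

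The D3 effect in lung was set against that in the other tissues of the same mice. Against liver, 0 genes differed in the effect by limma's interaction term, with 1713 probes reaching 0.05 before adjustment. Against forestomach, 230 probes (0.707%), for 224 genes, differed, 68 with the higher effect in lung and 162 with the lower, but 18 genes remained in number with the spread estimated within each tissue, an alternative added after the data had been seen, 32 without lung arrays of mice 17 and 19, and 0 with median centring (smallest adjusted p 0.95, 705 genes reaching 0.05 before adjustment), which also ends the calls of the genes named next. Without D0 mice 1, 3, 4 or 5 the count was 41, 382, 28 or 420, and without D3 mice 16, 17, 18 or 20 it was 381, 14, 405 or 63. Among the genes above, Spib differed, with log2 fold changes of 1.05 in lung and -0.35 in forestomach (difference 1.40, adjusted p 0.0143), and so did C2cd3, Mideas and Dmtf1, which had 0.02, 0.04 and 0.17 in forestomach, and Aen, which had -0.19 in lung and 0.61 in forestomach (adjusted p 0.0123). Cyp1a1 had -0.11 in liver and 1.07 in forestomach, and its difference from lung did not pass the test (adjusted p 1.00 and 0.14).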

How the data were processed

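The authors deposited, for each array, the scanner output with the median intensity of every spot in both channels (Feature Extraction 10.7.3.1 per the file headers) and flags of 0 or 1 (read as scores) for spots above background, and a table of log2 ratios of Cy5 over Cy3, which per the study's methods came from LOWESS of median signals that were not background-subtracted. The deposited log2 ratios were used here. Their direction was checked against the scanner medians (r 0.993 to 0.998 on the lung arrays). No dyes were swapped, and the number of arrays limits the precision.

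Of 55681 probes, 26413 were named through RefSeq transcripts (GRCm38.p6), and the others keep the name in the files. The 31448 probes tested were well above background on at least 3 lung arrays and had no non-uniform spot. D3 minus D0 was fitted with limma 3.58.1 (R 4.3.3) with a mean per dose over 18 lung arrays, two-sided, with Benjamini-Hochberg adjustment over all probes tested. The study's methods name MAANOVA, whose Fs statistic with 100 shuffles of the residuals was an alternative, beside other scalings and filters, slide, array column and marker lists in the fit, and mice left out. The script was tested on simulated data. Effects in the other tissues were compared in a fit of all 56 arrays. Mouse numbers pair tissues of the same animal, and the consensus correlation within a mouse was 0.02 against liver and 0.03 against forestomach.

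List members are represented by their brightest probe. Named genes are those past both limits, the 10 largest non-overlapping in each direction among genes with a symbol, members of the response lists, but not of the cell type lists, at an unadjusted p of at most 0.05, chosen fixed genes, and for mice 17 and 19 the 4 largest in the muscle list, 4 in the keratinocyte list and 6 outside any list. Of the genes under this rule, 2 response list members are not reported here. The lists, members, limits and naming rule were chosen with earlier results of these data known.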

Additional observations from a re-analysis of the deposited data

Results flagged for a closer look

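Of 156 groups of 5 arrays examined, 14 held a mouse far from the others, where chance alone marks about 1 in 20. In D0, mouse 3 stood apart for 6 genes: Mideas (0.11 against 0.53 to 0.66), Abcc5 (0.0246 against 0.40 to 0.52), Phf20l1 (0.57 against 0.93 to 1.02), Fas (2.91 against 1.89 to 2.12), Cdkn1a (0.39 against -1.31 to -0.94) and Pkp1 (-2.31 against -2.74 to -2.61). D0 mouse 5 did so for Snrnp48 (1.29 against -1.04 to -0.80) and Aen (-0.53 against -0.77 to -0.70), D0 mouse 2 for Dnaja1 (1.43 against 0.10 to 0.34) and D0 mouse 1 for Itgb1 (0.71 against 0.39 to 0.44). Within D3, mouse 19 was apart for Spib (3.13 against 1.83 to 2.09) and Cyp1a1 (0.15 against 0.75 to 0.88), and mouse 17 for Ifit1 (-1.12 against -0.53 to -0.39) and Xaf1 (-0.31 against 0.28 to 0.51).

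The D3 effect differed between lung and forestomach, by limma's interaction term, for Spib (lung minus forestomach 1.40, adjusted p 0.0143), Aen (-0.80, adjusted p 0.0123), Dmtf1 (-0.77, adjusted p 0.0189), Mideas (-0.65, adjusted p 0.0414) and C2cd3 (-0.82, adjusted p 0.0441).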

How the results depend on the processing

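The 40 genes past both limits in D3 became 14 with loess of scanner medians, 0 with median centring, 14 with normexp background, 20 with slide as a block, 0 with array column as a covariate, 0 with only the D0 and D3 arrays, 15 with array weights, 0 with the mean of the skeletal muscle or of the mesothelial list as a covariate and 0 without mice 17 and 19. The Fs test with shuffled residuals gave 39, of which 38 were among the 40. Beside the counts of 0, 4287, 979, 3351, 2974, 3253 and 2899 genes had an unadjusted p of at most 0.05. The cause of these shifts was not tested. Leaving out 1 mouse gave 0 to 142. The 822 non-overlapping probes became 442 with median centring, 2175 without mice 17 and 19, where fewer arrays must separate, 174 with a gap of at least 0.1, and 1030 to 1514 with 1 mouse left out. The 350 probes high only on mice 17 and 19 became 132 when 2 above D0 was required, and 248 to 499 with 1 mouse left out. The 0 genes against liver were 0 to 1 with 1 mouse left out. The 224 genes against forestomach became 0 with median centring, 149 with normexp background, 18 with the spread within each tissue, 32 without mice 17 and 19 and 14 to 420 with 1 mouse left out. With the mouse as a replicate block the interaction counts were 0 against liver and 246 against forestomach. No paired analysis was possible within lung because D0 and D3 hold different mice.

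With median centring, Aen, Btg2 and Parva changed sign to 0.0344, 0.0201 and 0.0142. Without mice 17 and 19, Sgca, Tnni2, Neb, Calml3, Krt14, Sprr1a, Dmkn, Ada, Mt4 and Pkp1, which are high on those arrays, changed sign to -0.0508, -0.474, -0.236, -0.496, -0.0372, -0.299, -0.309, -0.252, -0.0631 and -0.082, and Cdkn1a ranged from -0.406 to 0.0571 with 1 mouse left out, the latter without D0 mouse 3. With array column as a covariate, 51 of 104 named probes changed sign, among them 17 of the 40 past both limits. The slope of that fit came from D2 and D3 arrays alone, so these signs cannot tell column from exposure. Of 1243 other values for named genes under alternatives, 1065 kept their direction and their side of the limits and 156 lost the call.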
